A study of Homo sapiens with 10 samples.

Results

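The BTG/TOB and PNRC genes are 7 of the 59204 human genes in the count tables: BTG1, BTG2, BTG3, TOB1, TOB2, PNRC1 and PNRC2. They were taken by name, through their Ensembl identifiers. The set was selected on the total and labelled reads of PNRC1 and BTG1, which differ strongly between 2 inhibitors, so the inhibitor values of those 2 genes are given as a description, with no test. The rule has no numeric threshold. All 7 are among the 11797 genes that averaged at least 20 total reads per library. The cells were K562, a line established from chronic myeloid leukaemia, and they took up 30 µM 4-thiouridine, a nucleoside that enters newly made RNA, for 12 h and were then washed into 3 mM uridine. The uridine medium held 1 µM AZ-5576, an inhibitor of the elongation kinase CDK9, or 1 µM JQ1, which blocks the bromodomains of BET proteins, or the solvent DMSO. Cells were harvested after 2, 4 and 8 h in each of these 3 arms, and a 0 h sample, taken at the start of the chase, serves all 3. Each of these 10 conditions has 1 library, so a p-value below measures the scatter of the libraries about a fitted model, misfit of the model included. It does not measure the spread between cultures.

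BTG and TOB proteins share a domain that binds CNOT7 and CNOT8, the catalytic CAF1 subunits of the CCR4-NOT complex, which shortens poly(A) tails. They slow cell proliferation, and several of them are early response genes with short-lived messages. The PNRC proteins are small proline-rich coactivators of nuclear receptors. PNRC2 also joins the nonsense-mediated decay factor UPF1 to the decapping activator DCP1A, so that both gene groups act on messages after transcription.

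The libraries held 10293371 to 16008906 human reads, of which 2031796 to 3868420 were labelled reads, and 1208073 to 2366155 fly reads. Fly S2 RNA had been added at 5% of the purified RNA, and a level is the number of reads per 1000000 fly reads, called fly-scaled reads. This scale is relative to the mass of purified RNA, so neither the number of cells nor the total RNA per cell shows in it. The labelled share of all human reads was 30.5%, 28.7% and 25.5% in AZ-5576 at 2, 4 and 8 h, 29.1%, 23.6% and 14.7% in JQ1, 29.1%, 20.9% and 13.2% in DMSO, and 32.0% at 0 h. Of the K562 markers, all 8 passed the count minimum, and the summed level was 84195 to 126394 in AZ-5576, 82922 to 91601 in JQ1, 87110 to 108021 in DMSO and 100915 at 0 h, most of it HBG1 and HBG2. Single markers went other ways: at 8 h KLF1 had 64 reads in AZ-5576, 142 in JQ1 and 1484 in DMSO, and GATA1 had 689, 322 and 1830. Of 12 markers of other cells, 6 passed, among them CD3D, COL1A1, PECAM1, CD14 and LYZ, KRT5 and KRT14 had no read, and the sum was 295 to 455, 286 to 436, 383 to 496 and 440 in the same order of conditions. Among them COL1A1 had 12 to 23 reads in AZ-5576, 18 to 68 in JQ1, 6 to 11 in DMSO and 8 at 0 h. The part of these markers in the results below was not tested. The fly genes scattered most in the AZ-5576 2 h library, with an SD of 0.534 log2 units about the median library, against 0.132 in the library that scattered least.

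The promoters of 3 members are shown because the inhibitors act on transcription: BTG1 and PNRC1, the members that name the contrast between the inhibitors, and BTG3, the member with the lowest values in JQ1 relative to DMSO. Each window runs 5′ to 3′ from 250 bases before the gene's start to 50 after it (RefSeq, GRCh38.p14). Capitals mark, on either strand, the TATA box (TATAAA), the CCAAT box, the cyclic AMP element core (TGACGT), the GC box (GGGCGG) and the AP-1 type element (TGANTCA).
BTG1 promoter, chr12:92145797-92146096, minus strand: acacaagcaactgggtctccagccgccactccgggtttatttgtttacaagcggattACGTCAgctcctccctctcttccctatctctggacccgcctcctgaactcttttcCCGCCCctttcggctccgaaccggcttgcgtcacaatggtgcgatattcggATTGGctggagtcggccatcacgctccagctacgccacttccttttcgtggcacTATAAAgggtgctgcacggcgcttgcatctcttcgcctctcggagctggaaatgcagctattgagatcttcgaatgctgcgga
PNRC1 promoter, chr6:89080501-89080800, plus strand: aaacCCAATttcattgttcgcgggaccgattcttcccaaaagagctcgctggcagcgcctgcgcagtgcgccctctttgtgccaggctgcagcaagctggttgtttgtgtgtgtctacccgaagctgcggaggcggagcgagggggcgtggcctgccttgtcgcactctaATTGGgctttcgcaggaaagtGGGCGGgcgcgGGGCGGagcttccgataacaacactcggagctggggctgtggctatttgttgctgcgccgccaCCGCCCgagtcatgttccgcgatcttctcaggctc
BTG3 promoter, chr21:17612852-17613151, minus strand: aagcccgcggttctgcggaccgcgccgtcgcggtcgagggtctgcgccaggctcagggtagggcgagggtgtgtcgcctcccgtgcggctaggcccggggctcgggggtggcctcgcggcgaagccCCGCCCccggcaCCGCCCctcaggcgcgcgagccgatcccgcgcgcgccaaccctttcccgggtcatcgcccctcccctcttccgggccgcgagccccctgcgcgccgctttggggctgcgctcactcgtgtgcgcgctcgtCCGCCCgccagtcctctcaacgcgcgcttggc
The BTG1 window holds TATAAA 33 bases before the start, and on the other strand a CCAAT box, a GC box and TGACGT. The TATA box occurs in 11.5% of 35116 RefSeq promoters of this length, and TGACGT in 7.98%. The PNRC1 window holds the CCAAT box at 2 places and the GC box at 3, and neither the TATA box nor the cyclic AMP element core. The CCAAT box is in 34.6% of promoters and the GC box in 45.0%. The BTG3 window, at 77.3% GC against 56.0% for BTG1, 61.7% for PNRC1 and a median of 58.7% over all promoters, holds the GC box at 3 places and none of the other motifs. The AP-1 type element, which 7.71% of promoters hold, is in none of the 3 windows.

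Sites in the 3′ untranslated regions are shown because the study measured RNA decay, and AU-rich and Pumilio-type elements are known decay elements in such regions. The windows come from GRCh38 transcripts, and capitals mark TATTTAT, an AU-rich core, in the first 4 and TGTANATA, the Pumilio-type motif, in the last 2.
BTG1, chr12:92140770-92140798, minus strand: aatagatttctTATTTATctgaaggtata
BTG2, chr1:203307528-203307556, plus strand: aaatgaagagcTATTTATatatattattt
BTG3, chr21:17593831-17593859, minus strand: ttggacttgagTATTTATatattgtgcat
TOB2, chr22:41435380-41435408, minus strand: tcgcaagtcctTATTTATatgtgaggctg
PNRC1, chr6:89084347-89084376, plus strand: attttatatttTGTAAATActgtataccat
PNRC2, chr1:23962635-23962664, plus strand: agaaagagccaTGTAAATAtctgtaataaa
The 3802-base region of BTG1 holds TATTTAT at 1 place, as do 63.4% of regions of like length, and TGTANATA at 4 places, against a median of 1. The 440-base region of BTG3 holds TATTTAT at 2 places, and 14.3% of regions of like length hold it at all. PNRC1 has no ATTTA in 964 bases and TGTANATA at 2 places, a motif that 20.4% of regions of like length hold. TOB1 has ATTTA at 4 places in 757 bases and neither longer motif. A match is a string of letters and was not tested as a site.

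BTG1, which lies on the minus strand of chromosome 12 (chr12:92140278-92145897), binds the arginine methyltransferase PRMT1 as well as CAF1. Its total level was 156, 25.2 and 8.88 fly-scaled reads in AZ-5576 at 2, 4 and 8 h, 256, 350.3 and 1029 in JQ1, 211, 197 and 449 in DMSO, and 222 at 0 h. At 8 h these levels rest on 21, 1796 and 792 reads in AZ-5576, JQ1 and DMSO, with exact 95% intervals of 5.49 to 13.6, 982 to 1077 and 418 to 482. BTG1 stood lowest in the 3 AZ-5576 libraries and highest in JQ1 at 8 h, and the intervals of neighbours in this order overlapped in 4 of 9 pairs, all of them between AZ-5576 2 h and JQ1 2 h. The ratio of AZ-5576 to DMSO ran through 0.741, 0.128 and 0.0198 (interval 0.0122 to 0.0304) at 2, 4 and 8 h, and the JQ1 ratio was 1.21, 1.78 and 2.29 (2.11 to 2.49). The labelled reads differed between the arms as well. Labelled BTG1 was 117, 15.7 and 2.54 in AZ-5576, 94.8, 85.5 and 60.7 in JQ1, 92.7, 31.4 and 26.7 in DMSO, and 160.2 at 0 h. At 4 h, labelled BTG1 in JQ1 was 2.72 times that in DMSO (1.93 to 3.91), and in AZ-5576 it was 0.498 times that in DMSO. These intervals cover counting error only, since the sources used here name no molecular identifiers. The gene overlaps LINC01619 and, on the opposite strand, AC025164.1, which averaged 4.7 and 5.1 reads per library.

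BTG2, a p53-induced member of the family (chr1:203305491-203309602, plus strand), had few reads. The counts were 10, 2 and 1 in AZ-5576 at 2, 4 and 8 h, 14, 31 and 90 in JQ1, 18, 25 and 33 in DMSO, and 21 at 0 h. As fly-scaled reads these were 7.35, 1.36 and 0.423 in AZ-5576, 8.73, 17.0 and 51.5 in JQ1, 14.9, 18.3 and 18.7 in DMSO, and 14.2 at 0 h. The AZ-5576 libraries were the lowest 3, and of 9 neighbouring pairs in the order of levels only DMSO 8 h and JQ1 8 h had intervals that did not overlap. BTG2 in JQ1 was 0.586 times the DMSO level at 2 h (0.270 to 1.25) and 2.75 times at 8 h (1.83 to 4.24). Labelled BTG2 reads numbered 9, 1 and 0 in AZ-5576, 5, 0 and 0 in JQ1, 0 in every DMSO library, and 8 at 0 h, too few for a decay rate.

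BTG3, which in human cells binds the cell cycle factor E2F1 (chr21:17593653-17612947, minus strand), had another order of conditions. Total BTG3 was 253, 156 and 98.0 in AZ-5576 at 2, 4 and 8 h, 191, 178 and 245 in JQ1, 401, 303 and 301 in DMSO, and 242 at 0 h. All 3 DMSO libraries were above all 6 inhibitor libraries, and the AZ-5576 and JQ1 libraries overlapped each other. Intervals of neighbours overlapped in 6 of 9 pairs. Over DMSO, BTG3 in AZ-5576 gave ratios of 0.631, 0.514 and 0.326 (0.278 to 0.381) at 2, 4 and 8 h. In JQ1 the ratio was lowest at 2 h, 0.478 (0.413 to 0.553), and was 0.586 at 4 h and 0.812 at 8 h (0.713 to 0.924). The 8 h ratio in JQ1 was 1.02 with libraries scaled by TMM (trimmed mean of M-values) in place of fly reads.

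TOB1, which binds the poly(A)-binding protein PABPC1 and SMAD proteins (chr17:50862223-50867978, minus strand), stood far below DMSO in AZ-5576 at 2 h already. Its counts were 6, 13 and 11 in AZ-5576 at 2, 4 and 8 h, 91, 171 and 204 in JQ1, 40, 41 and 101 in DMSO, and 40 at 0 h. As fly-scaled reads, these were 4.41, 8.85 and 4.65 in AZ-5576, 56.8, 93.7 and 117 in JQ1, 33.1, 30.0 and 57.3 in DMSO, and 27.0 at 0 h. The AZ-5576 libraries lay below all others, and each JQ1 library lay above the DMSO library of its time. TOB1 in AZ-5576 was 0.133 (0.0461 to 0.316), 0.295 and 0.0812 times the DMSO level at 2, 4 and 8 h, and in JQ1 it was 1.71 (1.17 to 2.55), 3.13 and 2.04 times that level. Intervals overlapped in 6 of 9 neighbouring pairs, and those of AZ-5576 4 h and 0 h did not. Labelled TOB1 reads numbered 5, 8 and 2 in AZ-5576, 37, 32 and 8 in JQ1, 19, 7 and 0 in DMSO, and 23 at 0 h, under the minimum for a decay rate. TOB1-AS1, on the opposite strand, averaged 5.6 reads per library.

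TOB2, the paralogue of TOB1 (chr22:41433492-41447023, minus strand), was lower in AZ-5576 and close to DMSO in JQ1. Total TOB2 was 44.1, 34.7 and 33.8 in AZ-5576 at 2, 4 and 8 h, 165, 199 and 186 in JQ1, 161, 161 and 181 in DMSO, and 128 at 0 h. Of 9 neighbouring pairs, only AZ-5576 2 h and 0 h had intervals that did not overlap, so TOB2 formed 1 low group of AZ-5576 libraries and 1 graded group of all others. The ratio to DMSO was 0.273, 0.216 and 0.186 (0.144 to 0.239) in AZ-5576, and 1.02, 1.24 (1.04 to 1.47) and 1.03 in JQ1. Labelled TOB2 was 17.6, 10.9 and 4.23 in AZ-5576, 45.5, 26.9 and 4.01 in JQ1, 41.4, 19.7 and 5.10 in DMSO, and 54.1 at 0 h. The AZ-5576 libraries were thus the lowest at 2 and 4 h, and the 3 arms came close at 8 h. Unlabelled TOB2 was 26.4, 23.8 and 29.6 in AZ-5576, 119.7, 172 and 182 in JQ1, 120.0, 141 and 176 in DMSO, and 73.7 at 0 h. A pseudogene, TOB2P1, averaged 92.4 reads per library, so reads of the pair could have been split between them and TOB2 values are uncertain. TOB2P1 had 64.6, 34.7 and 28.7 fly-scaled reads in AZ-5576 at 2, 4 and 8 h, 94.2, 35.1 and 28.6 in JQ1, 112.6, 48.2 and 48.8 in DMSO, and 110.8 at 0 h, an order of its own.

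PNRC1, a nucleolar protein that restrains ribosomal RNA maturation (chr6:89080751-89085160, plus strand), had 1 read at 0 h and 213 in JQ1 at 8 h. Its counts were 4, 1 and 3 in AZ-5576 at 2, 4 and 8 h, 33, 74 and 213 in JQ1, and 10, 14 and 34 in DMSO. As fly-scaled reads, these were 2.94, 0.681 and 1.27 in AZ-5576, 20.6, 40.6 and 122 in JQ1, 8.28, 10.2 and 19.3 in DMSO, and 0.676 at 0 h. The 4 lowest libraries were those of 0 h and AZ-5576, the DMSO libraries came next, and all 3 JQ1 libraries were above all 3 DMSO libraries. Intervals overlapped in 7 of 9 neighbouring pairs, and JQ1 4 h and JQ1 8 h each stood clear of the library below. PNRC1 in JQ1 was 2.49 (1.20 to 5.66), 3.96 (2.22 to 7.60) and 6.33 (4.39 to 9.37) times the DMSO level at 2, 4 and 8 h. In AZ-5576, with 1 to 4 reads, it was 0.355 (0.0813 to 1.23), 0.0666 (0.00157 to 0.438) and 0.0658 (0.0129 to 0.209) times that level. The DMSO libraries in turn stood 12.2 (1.74 to 532), 15.1 (2.30 to 640.2) and 28.5 (4.79 to 1159.7) times above the 1 read of 0 h. Labelled PNRC1 reads numbered 2, 1 and 0 in AZ-5576, 6, 6 and 5 in JQ1, 3, 1 and 3 in DMSO, and 1 at 0 h, so most of the PNRC1 reads in JQ1 and DMSO were unlabelled.

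PNRC2, the decapping and nonsense-mediated decay partner (chr1:23956839-23963462, plus strand), had the most reads of the 7, with 602 to 3838 per library. Its total level was 1062, 738 and 254 in AZ-5576 at 2, 4 and 8 h, 1464, 1622 and 2198 in JQ1, 1282, 1429 and 1454 in DMSO, and 1181 at 0 h. The 3 arms did not overlap, with AZ-5576 lowest, DMSO between and JQ1 highest, and intervals overlapped in 3 of 9 neighbouring pairs. The ratio to DMSO was 0.828, 0.516 and 0.175 (0.160 to 0.191) in AZ-5576 and 1.14, 1.13 and 1.51 (1.44 to 1.59) in JQ1. Labelled PNRC2 was 759.6, 501 and 165 in AZ-5576, 811, 501 and 188 in JQ1, 797, 466 and 137 in DMSO, and 803 at 0 h, so the labelled reads of the 3 arms overlapped where the total reads did not. A pseudogene, PNRC2P1, averaged 86.0 reads per library and could share reads with PNRC2.

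**Figure D1:**
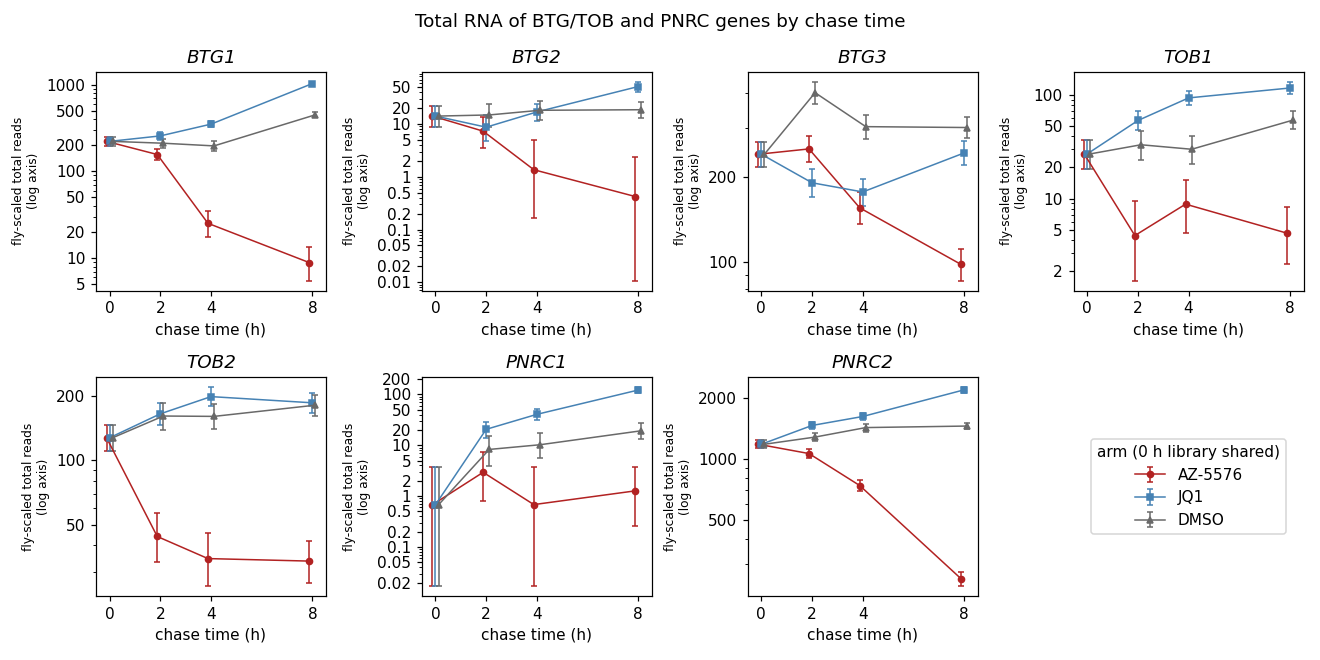
Total fly-scaled reads (reads per 1000000 fly reads, log axis) of each member against hours of chase in AZ-5576, JQ1 and DMSO, from the shared 0 h library, with exact 95% counting intervals. BTG1 ends at 8.88 in AZ-5576, 1029 in JQ1 and 449 in DMSO, while the AZ-5576 and JQ1 points of BTG3 lie below those of DMSO. Each panel has its own scale.

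The comparison of AZ-5576 with DMSO asks how the members' RNA responded to CDK9 inhibition. All 7 members had their 3 AZ-5576 libraries below their 3 DMSO libraries in total RNA, a pattern that 51.3% of the genes tested showed. The counting interval of the ratio lay wholly below 1 for 5 of 7 members at 2 h and for 7 of 7 at 4 and 8 h, against 47.3%, 70.3% and 87.9% of genes. Since the set was proposed on inhibitor values, nothing is read from these counts. In a fit with 4 time levels and 1 term per inhibitor, TOB1 fell by 2.75 on the log2 scale (SE 0.49, adjusted p = 0.0342) and TOB2 fell by 2.16 (SE 0.36, adjusted p = 0.0262), by edgeR's quasi-likelihood test with Benjamini-Hochberg adjustment over all genes. These were 2 of the 5 members tested, and 2.38% of genes were called lower. BTG2 differed by -2.61 (SE 0.93, adjusted p = 0.0730), BTG3 by -1.03 (SE 0.38, adjusted p = 0.0778) and PNRC2 by -1.10 (SE 0.43, adjusted p = 0.0852). All 5 had an unadjusted p under 0.05, as did 5198 of the 11797 genes, and nothing is read from that count. BTG2 is among them although it passed the count minimum through its JQ1 libraries. Untested, BTG1 differed by -2.34 (SE 0.94) and PNRC1 by -2.94 (SE 0.74). The median of all genes was -0.82, and 1.44% of genes had a lower value than TOB1, 4.33% than TOB2, 36.6% than BTG3 and 33.0% than PNRC2. Scaling by TMM moved the median to -0.08 and left TOB1 at -1.95 and TOB2 at -1.38, both still called, and BTG3 at -0.31 and PNRC2 at -0.43. Neither TOB1 nor TOB2 was called without AZ-5576 4 h, JQ1 4 h, DMSO 4 h or DMSO 8 h, with adjusted p-values of 0.0751 to 0.237 for TOB1 and 0.0751 to 0.204 for TOB2, and without AZ-5576 2 h all 5 tested members were.

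A second model had 1 slope per arm from a common 0 h level. There the slope in AZ-5576 minus that in DMSO was -0.68 log2 units per hour for BTG2 (adjusted p = 2.21e-05), -0.22 for BTG3 (adjusted p = 0.000225), -0.49 for TOB1 (adjusted p = 2.48e-05), -0.37 for TOB2 (adjusted p = 6.31e-06) and -0.29 for PNRC2 (adjusted p = 1.05e-07), by edgeR's quasi-likelihood test, so that all 5 tested members were lower. In that model 73.3% of genes were called lower, with a median of -0.19. BTG1 at -0.68 and PNRC1 at -0.56 are given without a test. BTG2 passed the count minimum through its JQ1 libraries, so nothing is read from its p-value.

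In the comparison of JQ1 with DMSO, which shares its DMSO libraries with the one above, the members went apart. PNRC1 and PNRC2 had all 3 JQ1 libraries above all 3 DMSO libraries, as 1.89% of genes did, and BTG3 had them all below, as 27.8% did. For PNRC2 the nearest libraries had overlapping intervals, 1405 to 1524 in JQ1 2 h and 1398 to 1511 in DMSO 8 h. The interval of the ratio lay wholly above 1 for 4, 5 and 5 of 7 members at 2, 4 and 8 h, against 4.68%, 9.54% and 15.4% of genes, and wholly below 1 for BTG3 alone, against 56.3%, 53.3% and 55.5%. PNRC1 and BTG1 are in these counts by the choice of the set, and BTG2, above 1 at 8 h, passed the count minimum through its JQ1 libraries. Nothing is read from the counts. In the fit with time levels, edgeR's quasi-likelihood test called 0 of the 5 members tested and 0% of the 11797 genes, with 1 member and 1081 genes at an unadjusted p under 0.05. DESeq2 and limma also called none of the 5, and DESeq2 called 71 genes. The differences were 1.12 for TOB1 (SE 0.43, adjusted p = 0.529), 0.45 for BTG2 (SE 0.78, adjusted p = 0.822), 0.36 for PNRC2 (SE 0.41, adjusted p = 0.737), 0.13 for TOB2 (SE 0.34, adjusted p = 0.886) and -0.67 for BTG3 (SE 0.38, adjusted p = 0.572). The untested differences were 2.08 for PNRC1 (SE 0.57) and 0.92 for BTG1 (SE 0.81), and without JQ1 8 h the BTG1 difference was -0.00063 and that of PNRC2 was -0.15. Most genes lay lower in JQ1, with a median of -0.31 by fly reads and 0.01 by TMM, and 98.7% of genes lay lower than TOB1, 93.5% lower than PNRC2 and 18.1% lower than BTG3. When only the 0 h, DMSO and JQ1 libraries were fitted, TOB1 (1.15, adjusted p = 0.0181) and BTG3 (-0.71, adjusted p = 0.0246) were called, along with 2697 genes in all. TOB1 was also called without AZ-5576 8 h, at 1.14 (adjusted p = 0.0455). The model of slopes, by edgeR's quasi-likelihood test, called none of the 5 in JQ1 and 18% of genes. There 2 of the 5 and 3868 genes had an unadjusted p under 0.05. The slope in JQ1 minus that in DMSO was 0.20 per hour for TOB1 (adjusted p = 0.0559), 0.07 for PNRC2 (adjusted p = 0.102) and -0.09 for BTG3 (adjusted p = 0.171). It was 0.13 for BTG2 (adjusted p = 0.252) and 0.02 for TOB2 (adjusted p = 0.815).

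**Figure D2:**
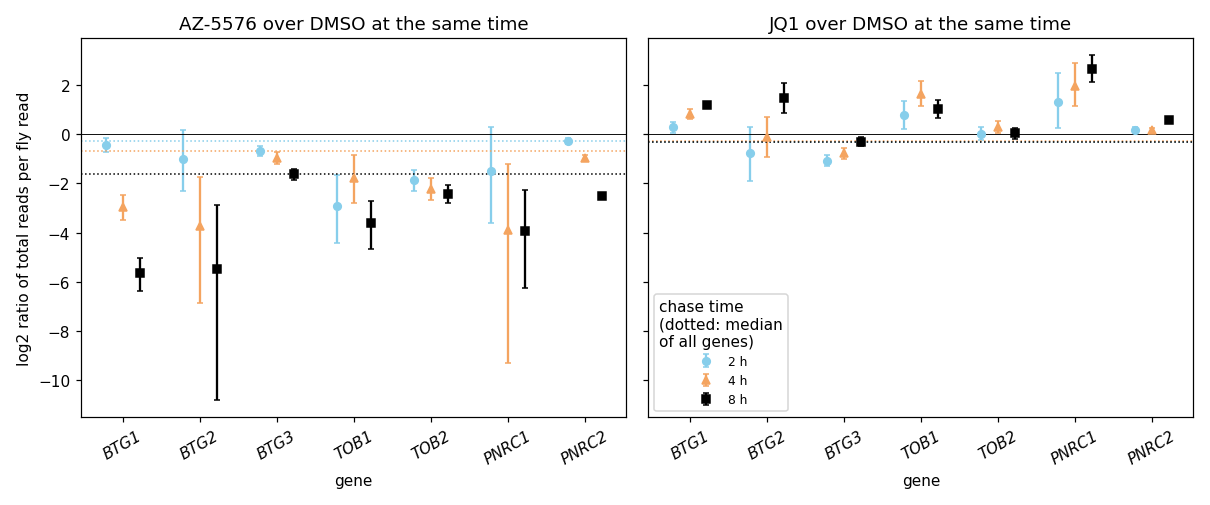
Log2 ratio of total reads per fly read to the DMSO library of the same hour for AZ-5576 (left) and JQ1 (right) at 2, 4 and 8 h, with exact 95% counting intervals, a solid line at a ratio of 1 and dotted lines at the median of all genes. The ratios behind the PNRC1 points in JQ1 are 2.49, 3.96 and 6.33, and BTG3 stays under the solid line in both inhibitors.

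AZ-5576 and JQ1 are set side by side as a description, since this contrast chose the set. All 3 AZ-5576 libraries were below all 3 JQ1 libraries in 6 of 7 members and in 25.2% of genes, and nothing is read from that count. PNRC1 in AZ-5576 was 0.143, 0.0168 and 0.0104 (0.00213 to 0.0308) times its level in JQ1 at 2, 4 and 8 h, and BTG1 was 0.610, 0.0719 and 0.00863 (0.00533 to 0.0132) times. TOB1 stood at 0.0777, 0.0945 and 0.0398, TOB2 at 0.267, 0.175 and 0.182, and PNRC2 at 0.726, 0.455 and 0.116. BTG2, on 1 to 90 reads, stood at 0.841, 0.0802 and 0.00820. BTG3 was the member whose AZ-5576 and JQ1 libraries overlapped, with ratios of 1.32, 0.878 and 0.401. The fitted differences ran over the members as -5.02 for PNRC1, -3.87 for TOB1, -3.26 for BTG1, -3.07 for BTG2, -2.29 for TOB2, -1.46 for PNRC2 and -0.36 for BTG3, beside a median of -0.46 over all genes.

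Over the chase in DMSO, BTG1 rose by 0.13 log2 units per hour (SE 0.04, adjusted p = 0.00704, edgeR's quasi-likelihood test) in a fit of the 0 h and DMSO libraries alone, in which 27.7% of genes were called in either direction. Its DMSO ratios to 0 h were 0.952, 0.887 and 2.03 (1.78 to 2.31) at 2, 4 and 8 h, so the rise rests on the 8 h library. In the fit of all 10 libraries, whose 0 h level and spread draw on the inhibitor libraries too, the BTG1 slope was 0.12 (SE 0.04), -0.04 without DMSO 8 h and 0.08 by TMM, and it is given there without a test. PNRC1, which passed the count minimum through its JQ1 libraries, had a slope of 0.23 (SE 0.09), also without a test. None of the other 5 members was called by the 10-library fit, none had an unadjusted p under 0.05, and DESeq2 and limma called none, while 24.5% of genes were called higher with a median of 0.05 per hour. The slope was 0.12 for TOB1 (SE 0.07, adjusted p = 0.174), 0.09 for TOB2 (SE 0.05, adjusted p = 0.202) and 0.11 for BTG2 (SE 0.08, adjusted p = 0.341). Like PNRC1, BTG2 passed the count minimum through its JQ1 libraries. BTG3, at 0.04 (SE 0.04, adjusted p = 0.536), and PNRC2, at 0.01 (SE 0.03, adjusted p = 0.754), had the smallest slopes. BTG3 nevertheless stood at 1.66 times its 0 h level after 2 h (1.44 to 1.90), then at 1.25 and 1.24.

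The slope of the labelled RNA over the chase describes the net loss of label, and 4 members had enough labelled reads for a fit: BTG1, BTG3, TOB2 and PNRC2. Labelled reads did not fall from the start in most genes. At 2 h in DMSO the labelled ratio to 0 h had an interval wholly above 1 in 25.3% of genes and wholly below 1 in 11.7%. BTG3, TOB2 and PNRC2 fell in DMSO in the 10-library fit, as did 88.3% of genes. The slopes were -0.37 log2 units per hour for BTG3 (SE 0.05, adjusted p = 5.31e-13), -0.43 for TOB2 (SE 0.08, adjusted p = 3.16e-07) and -0.37 for PNRC2 (SE 0.04, adjusted p = 1.51e-22), by edgeR's quasi-likelihood test. BTG1 had a slope of -0.37 there (SE 0.05, no test). In the fit of the 0 h and DMSO libraries alone it fell by 0.34 log2 units per hour (SE 0.07, adjusted p = 2.82e-05, edgeR), and 65% of genes were called in either direction. As half-lives the 10-library slopes are 2.68 h for BTG1, 2.67 h for BTG3, 2.34 h for TOB2 and 2.71 h for PNRC2. The median was 4.45 h over the 8705 genes with a slope below 0, and 10.4% to 18.3% of the genes tested were lost faster. By TMM the slopes were -0.17 for BTG1, -0.17 for BTG3, -0.23 for TOB2 and -0.15 for PNRC2, with the median of all genes at -0.01 in place of -0.22, and without DMSO 8 h that of BTG1 was -0.61. In AZ-5576 the half-lives were 1.45 h for BTG1, 3.70 h for BTG3, 1.84 h for TOB2 and 2.93 h for PNRC2, and in JQ1 they were 5.08, 2.29, 2.47 and 3.12 h. The medians over the genes with a slope below 0 were 5.34 h in AZ-5576 (8736 genes) and 4.24 h in JQ1 (8711 genes). Dilution by growth and any label still entering RNA after the wash were not separated from decay, so the half-lives describe straight-line slopes and not decay alone.

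The labelled slope in AZ-5576 minus that in DMSO was 0.10 log2 units per hour for BTG3 (SE 0.05, adjusted p = 0.241), -0.12 for TOB2 (SE 0.09, adjusted p = 0.549) and 0.03 for PNRC2 (SE 0.03, adjusted p = 0.738). None of these 3 passed, DESeq2 and limma called none, and 4.75% of genes were called. An unadjusted p under 0.05 was found for 1 of the 3 and for 1525 of 8817 genes. For JQ1 minus DMSO the values were -0.06 for BTG3 (SE 0.05, adjusted p = 0.920), 0.02 for TOB2 (SE 0.09, adjusted p = 0.993) and 0.05 for PNRC2 (SE 0.03, adjusted p = 0.878). Again none of the 3 passed, none was called by DESeq2 or limma, and 0.669% of genes were called. An unadjusted p under 0.05 was found for 0 of the 3 and for 657 genes. BTG1, untested, had -0.31 (SE 0.06) in AZ-5576 and 0.18 (SE 0.05) in JQ1. Scaled to each library's own human reads, BTG3 (0.20, adjusted p = 0.000649) and PNRC2 (0.12, adjusted p = 0.00106) were called in AZ-5576, as were 5604 of 8817 genes.

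The labelled share of a gene's own reads, which needs no fly scale, separated AZ-5576 from the other arms. PNRC2 was 71.5%, 67.9% and 65.0% labelled in AZ-5576 at 2, 4 and 8 h, 55.4%, 30.9% and 8.57% in JQ1, 62.2%, 32.6% and 9.40% in DMSO, and 68.0% at 0 h. At 8 h its exact interval was 61.0% to 68.8% in AZ-5576 and 8.30% to 10.6% in DMSO. BTG3 was 62.5%, 47.6% and 42.7% labelled in AZ-5576, 52.4%, 25.9% and 7.49% in JQ1, 37.2%, 14.0% and 8.47% in DMSO, and 66.8% at 0 h. BTG1 was 74.6%, 62.2% and 28.6% labelled in AZ-5576, the last on 21 reads (11.3% to 52.2%), 37.0%, 24.4% and 5.90% in JQ1, 43.9%, 16.0% and 5.93% in DMSO, and 72.3% at 0 h. TOB2 had 40.0%, 31.4% and 12.5% in AZ-5576, 27.5%, 13.5% and 2.15% in JQ1, 25.6%, 12.3% and 2.81% in DMSO, and 42.3% at 0 h. In each of these 4 genes the AZ-5576 share was the highest of the 3 arms at every time, while JQ1 and DMSO lay near each other at 8 h. The whole libraries also had their highest share in AZ-5576, with 25.5% there, 14.7% in JQ1 and 13.2% in DMSO at 8 h. The high share in AZ-5576 is thus not particular to these genes. Taken relative to each gene's own total reads, the labelled slope of BTG3, TOB2 and PNRC2 was higher in AZ-5576 than in DMSO by 0.33 (adjusted p = 4.96e-06), 0.28 (adjusted p = 0.000516) and 0.32 (adjusted p = 2.27e-07) log2 units per hour, and 7755 of 8817 genes were called in that fit.

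**Figure D3:**
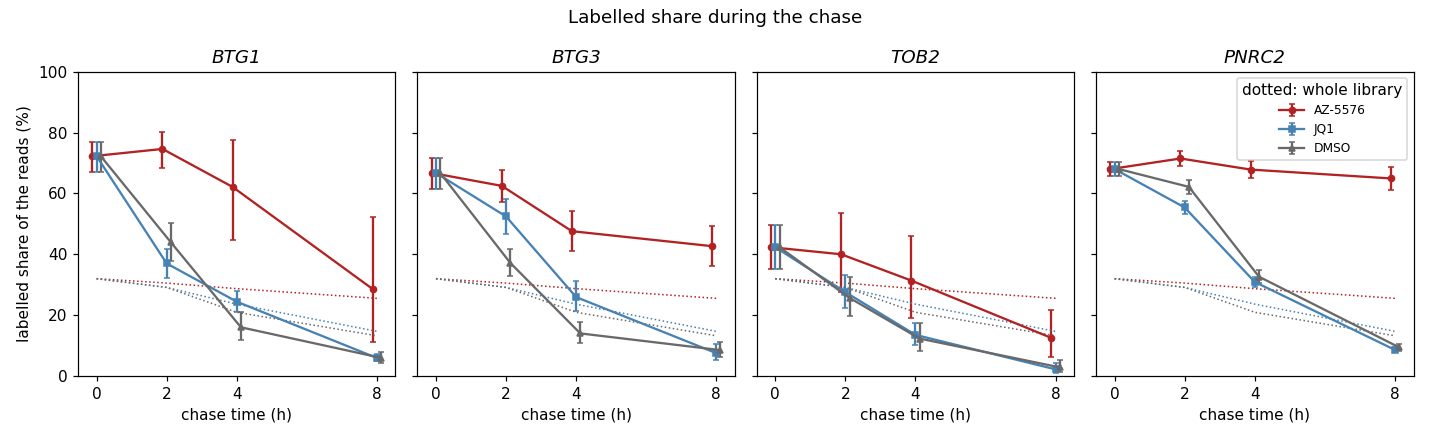
Labelled percent of each gene's reads against hours of chase for the 4 members with enough labelled reads, with exact 95% intervals and dotted lines for the share over the whole library. PNRC2 in AZ-5576 stays at 65.0% at 8 h, against 9.40% in DMSO.

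The remaining reads of each gene carry no label and include the RNA made during the chase. Unlabelled PNRC2 was 303, 237 and 89.2 in AZ-5576 at 2, 4 and 8 h, 653, 1121 and 2009.6 in JQ1, 485, 963 and 1317 in DMSO, and 378 at 0 h. Unlabelled BTG1 was 39.7, 9.54 and 6.34 in AZ-5576, 162, 265 and 968 in JQ1, 118, 165 and 422 in DMSO, and 61.5 at 0 h. Unlabelled BTG3 was 94.8, 81.7 and 56.2 in AZ-5576, 91.1, 132 and 226 in JQ1, 252, 261 and 276 in DMSO, and 80.4 at 0 h. The unlabelled reads of these genes grew over the DMSO chase, by 8 h to 3.49 times the 0 h level for PNRC2, 6.87 times for BTG1 and 3.43 times for BTG3, and in AZ-5576 at 8 h they were below the 0 h level. All 7 members had unlabelled AZ-5576 levels below all DMSO levels, as did 66.2% of genes. At 8 h the unlabelled ratio of AZ-5576 to DMSO was 0.0677 for PNRC2, 0.0150 for BTG1 and 0.204 for BTG3, and the labelled ratio was 1.21 (1.03 to 1.43), 0.0951 and 1.64 (1.14 to 2.39). Unlabelled BTG3 in JQ1 started below DMSO at 2 h and came nearer to it at 8 h. Labelled BTG3 was 158, 74.2 and 41.8 in AZ-5576, 100.4, 46.0 and 18.3 in JQ1, 149, 42.4 and 25.5 in DMSO, and 162 at 0 h.

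**Figure D4:**
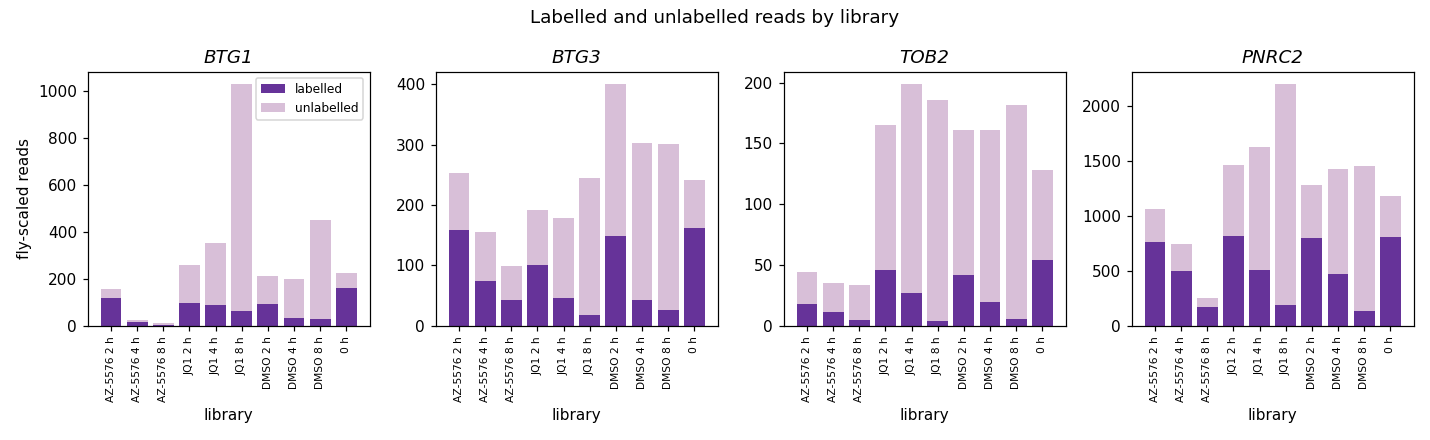
Stacked bars of labelled and unlabelled fly-scaled reads of BTG1, BTG3, TOB2 and PNRC2 in each of the 10 libraries. At 8 h unlabelled PNRC2 is 89.2 in AZ-5576, 2009.6 in JQ1 and 1317 in DMSO, on top of 165, 188 and 137 labelled.

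The proteins that BTG, TOB and PNRC members work with are encoded by 3 lists of genes. In AZ-5576 against DMSO the model of slopes called 14 of 15, 19 of 20 and 8 of 8 tested genes of these lists lower, beside 73.3% of all genes, and the fit with time levels called far fewer. Of 15 deadenylation genes (CCR4-NOT and PAN subunits and poly(A)-binding proteins), 0 were called in AZ-5576 against DMSO in the fit with time levels, with a median of -0.92 beside -0.82 over all genes, from CNOT11 at -1.13 (adjusted p = 0.0761) to PABPC1 at -0.20. Of 20 decapping and nonsense-mediated decay genes, 1 was called, PATL1, a scaffold of the decapping complex, which fell by 1.51 (SE 0.33, adjusted p = 0.0484, edgeR), with a list median of -0.87. DCP1B stood lower, at -1.84 (adjusted p = 0.0568), and STAU2 highest, at -0.22. Of 9 growth partners, 8 were measured above the count minimum and 0 were called, with a median of -0.71. In JQ1 none of these genes was called in the fit with time levels, and the medians were -0.38, -0.36 and -0.46 beside -0.31 over all genes. The model of slopes called 1, 4 and 3 genes of the lists lower in JQ1, beside 16.2% of all genes. The labelled RNA of all 15, 19 and 7 members of these lists with enough reads fell in DMSO, where 88.3% of all genes were called lower. The list medians were -0.21, -0.22 and -0.26 per hour beside -0.22 over all genes. CNOT4, a ubiquitin ligase, had the fastest loss of the first list at -0.66, and DCP1A the fastest of the second at -0.46. In AZ-5576 the labelled slope was higher than in DMSO for UPF2, by 0.20 (SE 0.04, adjusted p = 0.000763), and for DCP1A, by 0.15 (SE 0.05, adjusted p = 0.0464, edgeR), while 3.53% of all genes were called higher, and no other gene of the lists was called.

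Across the 10 libraries, the total levels of some members moved together more than others, given as descriptions over libraries that share arms and depth. Pearson's r of log2 levels was 0.978 between BTG1 and BTG2, 0.955 between BTG1 and PNRC2 and 0.935 between TOB1 and TOB2, and it was 0.337 between BTG3 and PNRC1 and 0.411 between BTG3 and TOB1. Among 8155 genes averaging 100 or more reads, those most like BTG1 were CCDC82 (0.981), DNAJB4 (0.981), RHEBL1 (0.981), KNL1 (0.979) and ZNF800 (0.979), and 11.7% of genes had an r above 0.9 with it. Genes among the 5 most like PNRC1 were KIAA1958 (0.964), MXD1 (0.964), POLR2A (0.954) and IPMK (0.953), and only 0.822% of genes had an r above 0.9. TOB1 was closest to SOCS3 (0.980) and KLHL15 (0.971), and TOB2 to NFKBIA (0.975) and ZC3H12A (0.974), with 0.699% and 1.78% of genes above 0.9. BTG2, on few reads, was closest to HAUS3 (0.992) and ZNF800 (0.991), and PNRC2 to CHMP1B (0.991) and STK17A (0.991). With these 2 members, 15.0% and 13.3% of genes had an r above 0.9. BTG4, the oocyte member of the BTG family, had 0 reads in all 10 libraries, where a floor of 3 reads stands for 1.27 to 2.48 fly-scaled reads.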

How the data were processed

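Per the labels' protocols, K562 cells were pulsed with 30 µM 4-thiouridine for 12 h with the medium exchanged every 3 h, chased in 3 mM uridine, and their RNA was alkylated with iodoacetamide and sequenced from the 3′ end (QuantSeq FWD). The authors deposited raw counts per gene of total, nascent and fly reads. Nascent reads are called labelled here. The rule for calling them and the aligner, counter and annotation are not given in the sources used here. The submitters' processing notes name the builds hg38 and dm6 and the tools bedtools, Trim Galore 0.6.5 and bcl2fastq 2.17.1.14. Of 59204 human identifiers, 55381 had a symbol (GENCODE v29, GRCh38).

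Counts were divided by the library's fly reads, and unlabelled reads are total minus labelled reads. The main test was edgeR 4.0.16 (R 4.3.3), glmQLFit and glmQLFTest, with the fly total as library size, over genes averaging at least 20 reads per library. Total RNA was fitted with 4 time levels and 1 term per inhibitor, leaving 4 residual degrees of freedom. DMSO time courses and labelled RNA were fitted with a common 0 h level and 1 slope per arm, leaving 6. BTG1 in DMSO was tested in the same model on the 0 h and DMSO libraries alone. Standard errors are the log2 difference divided by the root of F, and Benjamini-Hochberg adjustment ran over all genes with a threshold of 0.05. Ratios of 2 libraries and labelled shares have exact Clopper-Pearson 95% intervals, and the level of 1 library an exact Poisson one. They cover counting error only. The precision of a value follows its reads, from 1 read for PNRC1 at 0 h to 3838 for PNRC2 in JQ1 at 8 h.

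Alternatives were TMM, scaling to human reads, DESeq2 1.42.0, limma 3.58.1, other count minimums, other models, and leaving out each library. The scripts were tested on simulated data. The members and gene lists were chosen with earlier results of these data known. Named genes are the 7 members, the genes with the highest Pearson r to each (5 for PNRC1 and BTG1, 2 for the others), and the extreme and called genes of the lists. Some of the genes and sites so chosen are not reported here. The lists hold 15 deadenylation genes, 20 decapping and nonsense-mediated decay genes and 9 growth partners, beside 8 K562 and 12 other-cell markers.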

Additional observations from a re-analysis of the deposited data

How the results depend on the processing

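No paired analysis was possible because each condition has 1 library and the labels give no replicate numbers to pair. Of the 5 tested members, 2 were called in total RNA for AZ-5576 against DMSO. The number was 5 by DESeq2, by slopes and without the 2 h libraries of all arms, 4 with no filter on low counts, 1 at a mean of 100 reads or more, 0 without the 4 h libraries of all arms, and 0 to 5 when 1 library was left out. For JQ1 against DMSO it was 0, 2 with only 0 h, DMSO and JQ1 fitted, and 0 to 1 when 1 library was left out. For the change over time in DMSO by the 10-library fit, BTG1 and PNRC1 included, it was 1 of 7, which was BTG1, beside 28.3% of genes. It was 0 by TMM, own human total or DESeq2, 2 with no filter, and 0 to 1 when 1 library was left out. Since BTG1 and PNRC1 are given without a test in that fit, nothing is read from these counts. For labelled loss in DMSO, BTG1 included, it was 4 of 4 under scaling, tools and left-out libraries (4 to 4), beside 88.3% of genes called lower in the main fit. BTG1 is in that count without a test of its own. For the labelled slope in AZ-5576 it was 0 of 3, 2 with the own human total, 3 relative to the gene's own total reads, and 0 to 0 when 1 library was left out, as for JQ1.

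Some values changed sign. In total RNA, PNRC2 in JQ1 was -0.15 without JQ1 8 h, and up to 0.63 without JQ1 2 h, and BTG1, untested, ran between -0.00063 (without JQ1 8 h) and 1.47 (without JQ1 2 h). Over time in DMSO, BTG3 was -0.0022 and PNRC2 -0.028 by TMM, BTG1 -0.040 without DMSO 8 h and PNRC2 -0.0012 without 0 h, with up to 0.16 for BTG1 and 0.031 for PNRC2 when another library was left out. For the labelled slope in AZ-5576, PNRC2 was -0.0065 by TMM and -0.031 without DMSO 8 h (up to 0.068 without another library), and relative to the own total BTG1 was 0.35 and TOB2 0.28. In JQ1, TOB2 was -0.0073 by limma, -0.028 without JQ1 4 h and -0.023 without DMSO 8 h, PNRC2 was -0.011 without DMSO 8 h (up to 0.16 for TOB2 and 0.076 for PNRC2 without another library), and relative to the own total BTG3 was 0.051, TOB2 -0.0040 and PNRC2 -0.022. The BTG3 ratio of JQ1 to DMSO at 8 h was 1.02 by TMM. The cause was not tested.

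Over all genes, the AZ-5576 count of 291 was 302 by TMM, 1265 by own total, 4192 by DESeq2, 2541 by limma, 3605 unfiltered, 31 at a mean of at least 100, 8709 by slopes, 1660 with 0 h, DMSO and AZ-5576 alone, 5748, 6 and 1447 without the 2, 4 or 8 h libraries, and 1 to 6866 when 1 library was left out. The JQ1 count of 0 was 4 by TMM, 71 by DESeq2, 212 unfiltered, 2126 by slopes, 2697 with the JQ1 arm alone, and 0 to 847. BTG2, PNRC1 and TOB1 rest on few reads, which limits their ratios most in AZ-5576.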
